A study of Mus musculus with 10 samples.

Results

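The translation initiation factor genes were followed in the livers of mice that had received an LKB1 plasmid and of mice that had not. Their probes were all those whose gene symbol in the platform annotation starts with Eif and a digit, without Eif2ak2 and Eif2s3y, which gave 49 of the 19057 gene symbols and 93 of the 45281 probes on the array. There were 6 FVB mice in which LKB1 was overexpressed from a wild-type plasmid injected into the tail vein, 1 injection per week over 8 weeks, called LKB1 mice here by their label, and 4 FVB mice labelled untreated. FVB is an inbred laboratory strain. The labels give no injection, empty plasmid or age for the control mice, so LKB1 itself cannot be told apart from the plasmid and its repeated injection. Each mouse had 1 Illumina bead array of total RNA, labelled as hepatocytes in the source name and as liver in the tissue field. By its title the study was about SUMOylation of LKB1 and its shuttling in liver cancer, and these arrays compare liver mRNA with and without added LKB1.

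Translation initiation brings the small ribosomal subunit, the initiator tRNA and an mRNA together at a start codon. The factor eIF2 carries the initiator tRNA and is recharged with GTP by eIF2B, eIF3 is the scaffold on the small subunit, and the eIF4F factors bind the mRNA cap and unwind the leader. In liver, initiation is adjusted to feeding and stress by a pair of switches, phosphorylation of eIF2 by the eIF2 kinases and release of the cap-binding protein eIF4E from the 4E-binding proteins when mTORC1 phosphorylates them. LKB1 is the kinase that activates AMPK, and AMPK restrains mTORC1, which places the 4E-binding proteins downstream of LKB1 in the signalling network. Both switches act mainly on proteins, and the arrays measured mRNA.

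Over the whole table, between 15374 and 16839 probes per array were detected at a detection p under 0.05, and the 16803 probes detected on at least 4 arrays were kept and tested. Pairs of arrays correlated at 0.983 to 0.994 over the kept probes. The mouse probe for Stk11, the gene of LKB1, had 9.56 to 9.82 in LKB1 livers (median 9.64), against 9.63, 9.47, 9.76 and 9.55 in untreated livers, a log2 difference of 0.06 ± 0.08 (SE, limma adjusted p = 0.93). Its groups overlapped, so the labelled overexpression was not seen at this probe, and the sources used here do not say whether it reads the plasmid's transcript. All 6 hepatocyte markers were measured, and their mean log2 intensity lay between 12.91 and 13.07 in LKB1 livers and between 12.83 and 13.06 in untreated livers. Of 7 Kupffer cell and macrophage markers 5 were measured, all 5 higher in LKB1 livers and none past the test, with mean levels of 7.46 to 7.88 in LKB1 livers and 6.92 to 7.71 in untreated livers. Of the measured markers, 3 of 4 endothelial, 4 of 5 stellate cell or fibroblast and 1 of 2 bile duct markers were higher in LKB1 livers. For T or B cells, neutrophils and red cells it was 2 of 2, 0 of 1 and 0 of 2, and none of these passed the test. The part of cell types in the values below was not tested. In bulk RNA a change in the number of cells and one in RNA per cell cannot be told apart. The 10 arrays were clustered by signals of probes detected on no array and cut into 2 sets, a number fixed beforehand. Set A held LKB1 1, 2 and 4 and untreated 1 and 2. Set B held LKB1 5, 6 and 7 and untreated 3 and 4. The labels do not name this split, and how far the sets lie apart was not tested.

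Of the 93 probes, 66 were kept, and they stood for 39 of the 49 genes. The other 10 symbols had no probe detected on 4 arrays: Eif4e, the cap-binding protein itself, its germ-cell relative Eif4e1b, the scaffold Eif4g3, the eIF3 subunits Eif3e, Eif3h and Eif3m, the start-codon factor Eif1ax, the amino-acid-sensing kinase Eif2ak4, the eIF5A isoform Eif5a2 and the pseudogene Eif2s3x-ps1. The Eif4e probe was well above background on 0 of 10 arrays, and 1 probe of Eif3h on 2 of 6 LKB1 arrays and 0 of 4 untreated arrays. Several of these genes are needed by every cell, so these probes set no level for them. Eif1, Eif2s1, Eif3g and Eif4g1 were not analysed here.

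RefSeq promoter windows (GRCm38.p6, 250 bases before to 50 after the transcript start) were at hand for 37 of the 49 genes. They were richer in G and C than those of all 17492 protein-coding genes with a window, at a median of 62.7% against 56.3%, and their CpG ratio, observed over expected, was 0.912 against 0.567. The E-box CACGTG, which MYC and the clock activators bind, was found in windows of 9 of the 37 genes, 24.3%, against 8.91% of all coding genes. The letters CCGGAAG, which ETS factors bind, were found in 15 genes, 40.5%, against 12.9% of all coding genes. Both strands were searched, each motif was counted on its own also where motifs overlap, a gene with several windows was counted once, and the part of base composition in these shares was not tested. Over all 32851 windows, E-boxes were found in 7.15% and the ETS letters in 8.86%. The CRE TGACGTCA was found in 0 genes, against 2.54% of coding genes. The ATF4-type core TGATGNAA was found in 1 gene, 2.7%, against 4.13% of coding genes, and TATAAA in 2 genes, 5.41%, against 14.8% of coding genes. AAGATGGC, the core that YY1 binds, was found in 4 genes, 10.8%, against 3.57%, and CCAAT in 14 genes, 37.8%, against 42.3%. A C followed by 4 bases that are each C or T, the opening of mRNAs whose translation mTORC1 controls, stood at the annotated start of 2 genes, Eif2s3x and Eif3f, 5.41%, against 2.67% of coding genes.

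Promoters of 4 members are shown, 3 of them with an E-box and, last, that of Eif4ebp2, the member whose level varied most between mice. Each runs 5′ to 3′ on the gene's strand from 250 bases before the start through the first 10 bases of the transcript. Capitals mark the motifs named above and, in Eif3f, the run of C and T at the start.
Eif3f, chr7:108934165-108934424, plus strand: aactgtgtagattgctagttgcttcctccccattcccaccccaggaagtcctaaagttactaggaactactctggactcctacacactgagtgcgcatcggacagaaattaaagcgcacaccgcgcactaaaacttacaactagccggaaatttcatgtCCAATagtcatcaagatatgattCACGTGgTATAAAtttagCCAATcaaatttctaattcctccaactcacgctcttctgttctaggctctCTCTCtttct
Eif4a1, chr11:69672414-69672673, minus strand: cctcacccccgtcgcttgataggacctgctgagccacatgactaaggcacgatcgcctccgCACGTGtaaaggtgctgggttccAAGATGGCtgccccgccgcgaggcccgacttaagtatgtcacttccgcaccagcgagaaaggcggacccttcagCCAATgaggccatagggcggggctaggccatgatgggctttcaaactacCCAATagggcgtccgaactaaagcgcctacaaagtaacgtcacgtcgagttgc
Eif4h, chr5:134639400-134639659, minus strand: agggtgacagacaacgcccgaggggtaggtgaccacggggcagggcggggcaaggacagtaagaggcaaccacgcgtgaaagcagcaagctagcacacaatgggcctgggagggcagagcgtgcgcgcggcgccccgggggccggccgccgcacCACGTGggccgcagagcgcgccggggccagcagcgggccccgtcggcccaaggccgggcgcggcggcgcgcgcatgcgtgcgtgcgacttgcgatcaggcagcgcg
Eif4ebp2, chr10:61452660-61452919, minus strand: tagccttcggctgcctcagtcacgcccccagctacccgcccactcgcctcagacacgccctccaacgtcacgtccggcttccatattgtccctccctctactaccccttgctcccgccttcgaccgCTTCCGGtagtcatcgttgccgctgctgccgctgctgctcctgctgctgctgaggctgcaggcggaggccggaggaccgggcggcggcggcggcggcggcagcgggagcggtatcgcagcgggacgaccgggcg
With the start counted as 0, the E-box begins at -68 in Eif3f, at -189 in Eif4a1 and at -96 in Eif4h, and the ETS letters, read on the other strand, begin at -124 in Eif4ebp2. The 7 E-box genes with a kept probe differed little between the groups, 6 higher and 1 lower in LKB1 livers at their brightest probe, and with array medians made equal 3 were higher and 4 lower relative to all kept probes. Among all kept probes 49% were higher. Their median log2 difference was 0.05, with a range from -0.03 for the eIF3 subunit Eif3f to 0.13 for Eif3a, and none passed the test.

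Of the 66 initiation factor probes, 0 differed between the groups at a limma adjusted p of 0.05, and the smallest adjusted p among them was 0.574. No probe of the whole table passed either, so the share called was 0%. At an unadjusted p under 0.05 there were 3 initiation factor probes, 4.55%, against 6.66% of all kept probes. Of these, 2 were higher, 3.03% of the initiation factor probes against 3.48% of all, and 1 was lower, 1.52% against 3.18%. In LKB1 livers 35 of the 66 probes, 53%, were higher and 31 lower, against 49% of all kept probes higher. The median log2 difference was 0.01 for the initiation factors and -0.00 for all kept probes, and with array medians made equal the initiation factors lay at -0.03 relative to all kept probes, so their direction as a group depends on the scaling.

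On the intensity scale used, the differences at the kept probes were small, and most were bounded within 1.5-fold. That scale holds an offset of 16 added before the logarithm, which draws folds and intervals of dim probes toward 1. The bounds below are those of the offset scale. All 66 probes differed by under 1.25-fold, against 96.1% of kept probes, and log2 differences ran from -0.30 to 0.21. The 95% confidence interval lay inside a 1.5-fold difference either way for 63 of 66 probes, 95.5%, against 91.3% of all kept probes. It lay inside a 1.25-fold difference for 42 probes, 63.6%, against 46.2% of all kept probes. The median absolute log2 difference was 0.06 for the initiation factors and 0.08 for all kept probes. The 3 probes with wider intervals belonged to Eif4ebp2, Eif5 and Eif5b, and Eif5 had other probes with narrower ones. The initiation factor probes were also brighter. The median probe had a mean log2 intensity of 9.06 among initiation factors and 6.77 among all kept probes, and the median residual SD between mice of a group was 0.13 against 0.17, or 0.128 against 0.164 over probes detected on all arrays. The part of brightness in this was not tested.

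**Figure D1:**
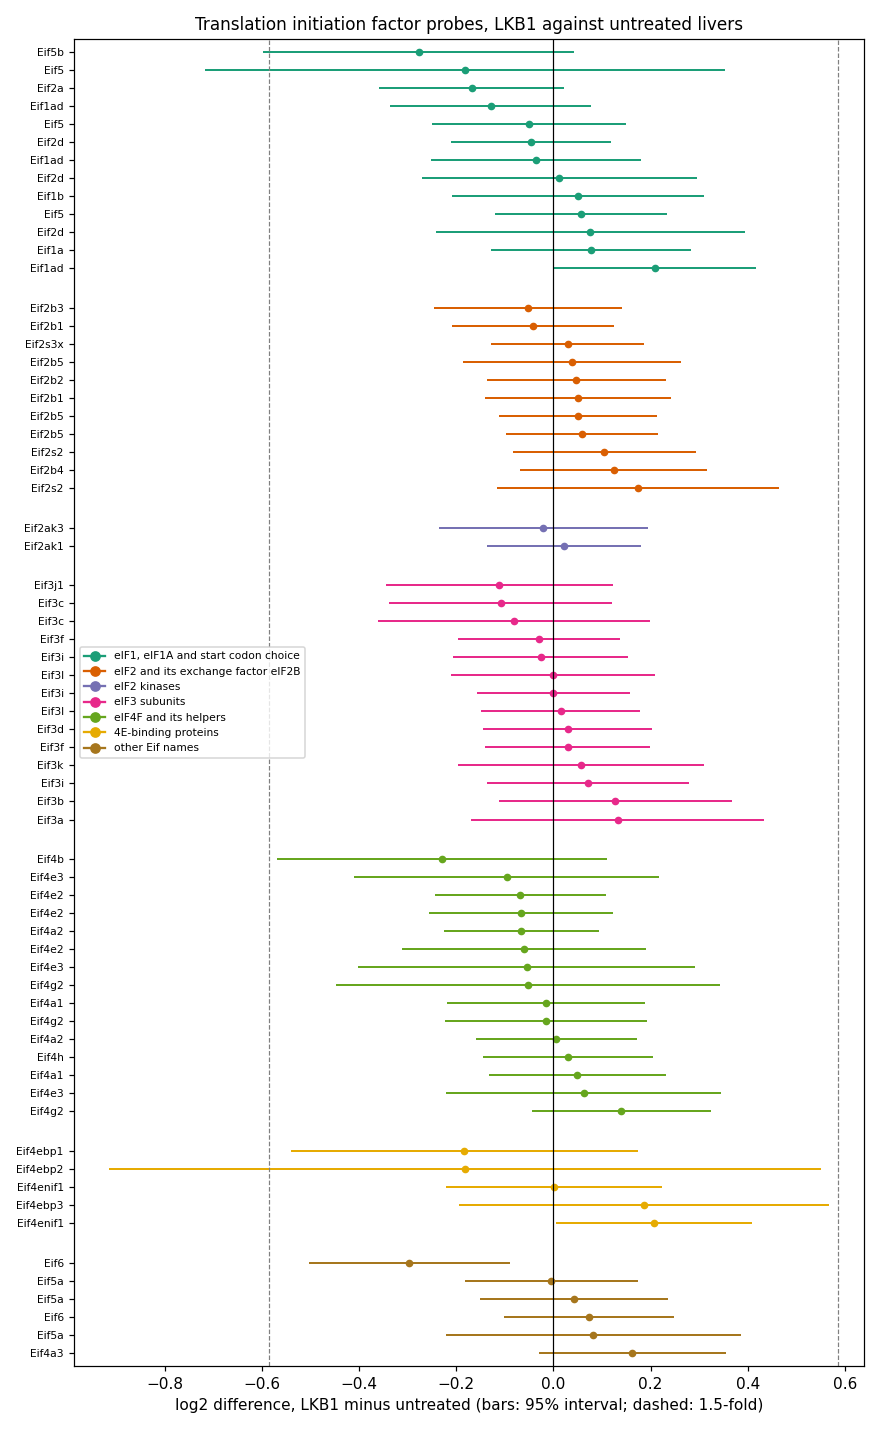
Log2 difference in intensity between LKB1 and untreated livers for each of the 66 kept initiation factor probes, by role, with 95% confidence intervals as bars (6 LKB1 and 4 untreated mice). On this scale, which holds the offset of 16, all points lie within 1.25-fold of 0. The intervals of 3 probes, of Eif4ebp2, Eif5 and Eif5b, cross the dashed line of a 1.5-fold difference.

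Among the factors that choose the start codon and join the subunits, 6 of 13 kept probes were higher and 7 lower, with a median log2 difference of -0.04, and 4 and 9 with array medians made equal. Eif2a, an initiator tRNA-binding protein distinct from eIF2, had log2 intensities from 10.38 to 10.73 in LKB1 livers (median 10.58), against 10.74, 10.90, 10.60 and 10.71 in untreated mice 1 to 4. Its groups overlapped only because LKB1 4 lay above untreated 3 and 4, and the difference was -0.17 ± 0.09 (SE), a fold of 0.89 with an interval from 0.781 to 1.01 (limma adjusted p = 0.783). Eif5b, the GTPase that joins the large subunit, was dim, from 4.76 to 5.36 in LKB1 livers (median 5.07), against 5.002, 5.69, 5.44 and 5.25 in untreated livers. LKB1 7 was the lowest mouse and untreated 2 the highest, and the difference of -0.28 ± 0.15 (SE) was -0.16 without untreated 2 and -0.39 without untreated 1. It was -0.09 within set A and -0.47 within set B. Eif5, the factor that triggers GTP hydrolysis by eIF2, gave -0.05 on its brightest probe, 0.06 on its dimmest and -0.18 on the middle one, whose mice spread most and whose value was -0.48 without untreated 3 and -0.06 without untreated 4. Eif1a, Eif1b and Eif2d, which act in scanning and tRNA delivery, were at 0.08, 0.05 and -0.05 on their brightest probes, and both dimmer Eif2d probes were at 0.01 and 0.08.

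Eif1ad, which encodes an eIF1A-domain protein, had 3 kept probes that did not go together. Its dimmest probe was higher in LKB1 livers, 6.97 to 7.28 (median 7.11), against 6.88, 6.70, 7.13 and 6.90 in untreated livers, a difference of 0.21 ± 0.10 (SE) (limma adjusted p = 0.745). The brightest probe gave -0.13 and the middle one -0.04. The exons that these probes cover are not known here, so no direction can be assigned to the gene.

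For the subunits of eIF2 and of its exchange factor eIF2B, 9 of 11 probes were higher and 2 lower, but with array medians made equal 4 were higher and 7 lower relative to all kept probes. The log2 differences ran from -0.05 to 0.17, and the median residual SD was 0.11. Eif2s2, the beta subunit of eIF2, lay between 9.002 and 9.33 in LKB1 livers (median 9.24), against 9.07, 9.08, 9.26 and 9.05 in untreated livers. LKB1 1 was below all untreated mice and untreated 3 above the LKB1 median, so the groups overlapped, at a difference of 0.10 ± 0.09 (SE) on this probe and 0.17 on its dimmer one. Eif2b4, the delta subunit of eIF2B, had 10.04 to 10.27 in LKB1 livers (median 10.19), against 10.13, 9.98, 10.19 and 9.83 in untreated livers, a difference of 0.12 ± 0.09 (SE). Without untreated 4, the lowest mouse, it was 0.06. The gamma subunit Eif2s3x was at 0.03, and Eif2b1, Eif2b2, Eif2b3 and the catalytic Eif2b5 at 0.05, 0.05, -0.05 and 0.06 on their brightest probes, with -0.04 on the dimmer Eif2b1 probe. The 3 Eif2b5 probes were alike, from 0.04 to 0.06, and neither Eif2s2 nor Eif2b4 passed the test (limma adjusted p = 0.868 and 0.853).

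Both measured kinases that phosphorylate eIF2 lay close to 0. Eif2ak1, the heme-regulated kinase, had 9.24 to 9.35 in LKB1 livers (median 9.30), against 9.14, 9.31, 9.33 and 9.33 in untreated livers. Apart from untreated 1 all mice lay within the LKB1 range, and the fold was 1.02 with an interval from 0.911 to 1.13. Eif2ak3, the ER stress sensor PERK, had 5.25 to 5.43 in LKB1 livers (median 5.30), against 5.50, 5.08, 5.53 and 5.23 in untreated livers. Untreated mice enclosed the LKB1 range on both sides, and the difference was -0.02 ± 0.10 (SE). Both signs turned with the setting: relative to all kept probes with array medians made equal, Eif2ak1 was at -0.03 and Eif2ak3 at 0.04.

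The eIF3 scaffold was split evenly, with 7 of 14 probes higher and 7 lower, a median of 0.01 and a range from -0.11 to 0.13, and with array medians made equal 4 were higher and 10 lower relative to all kept probes. Eif3b, a core subunit, had 8.86 to 9.38 in LKB1 livers (median 9.02), against 8.76, 8.87, 9.02 and 9.04 in untreated livers. LKB1 2, 5 and 6 stood above all untreated mice, LKB1 5 farthest, and without it the difference of 0.13 ± 0.11 (SE) was 0.06. Without untreated 1, the lowest mouse, it was 0.07. Eif3j1, the loosely bound subunit that helps recycling, had 5.80 to 6.13 in LKB1 livers (median 5.98), against 6.33, 6.06, 6.05 and 5.86 in untreated livers. Untreated 1 was the highest mouse, and without it the difference moved to -0.03, and without untreated 4 to -0.18, against -0.11 ± 0.11 (SE) with all mice. Both probes of Eif3c were lower, at -0.11 and, on a probe near background, at -0.08. Both of Eif3f lay near 0, at -0.03 and 0.03. Eif3d, Eif3k and Eif3l were at 0.03, 0.06 and 0.01 on their brightest probes, with -0.00 on the dimmer Eif3l probe. The 3 kept probes of Eif3i, a WD-repeat subunit, gave -0.00 on the brightest, -0.03 and 0.07.

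Among the cap-binding and helicase factors, 5 of 15 probes were higher and 10 lower, with a median of -0.05, and 2 and 13 with array medians made equal. Eif4b, which stimulates the helicase eIF4A and is a target of the kinases below mTORC1, had 6.44 to 7.35 in LKB1 livers (median 6.93), against 7.16, 6.98, 7.15 and 7.21 in untreated livers. The LKB1 mice spread more widely, with an SD of 0.34 against 0.10. LKB1 1, 2, 4 and 7 lay below all untreated mice, and LKB1 5 was the highest of all. The fold was 0.853 with an interval from 0.675 to 1.08 (limma adjusted p = 0.843), and the log2 difference of -0.23 ran from -0.32 without LKB1 5 to -0.14 without LKB1 2. Eif4e2, a cap-binding relative of eIF4E that does not bind eIF4G, had 8.76 to 9.18 in LKB1 livers (median 8.95), against 8.99, 9.07, 9.04 and 9.03 in untreated livers. LKB1 mice lay on both sides of the narrow untreated range, and the 3 Eif4e2 probes lay at -0.07, -0.07 and -0.06. The first was at -0.03 without LKB1 7, at -0.11 without LKB1 4 and at -0.00 within set A. The helicases Eif4a1 and Eif4a2 were at 0.05 and 0.01 on their brightest probes and at -0.02 and -0.07 on their dimmer ones, the brightest with fold intervals from 0.913 to 1.17 and from 0.896 to 1.12. Eif4h, a small helicase cofactor, was at 0.03. Eif4g2, a scaffold related to eIF4G that lacks the eIF4E site, gave -0.02 on its brightest probe and 0.14 and -0.05 on the others. Eif4e3, another cap-binding relative, gave -0.10 and -0.06 on its brighter probes and 0.06 on the dimmest.

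The 4E-binding proteins, which hold eIF4E until mTORC1 releases it, were grouped with the eIF4E transporter Eif4enif1. The 5 probes of this class had the widest spread between mice, with a median residual SD of 0.29 against 0.13 over all initiation factor probes. The Eif4ebp1, Eif4ebp2 and Eif4ebp3 probes had 0.29, 0.64 and 0.31, and the Eif4enif1 probes 0.15 and 0.13. Eif4ebp1, the main insulin-responsive form, had 8.86 to 9.78 in LKB1 livers (median 9.32), against 9.23, 9.79, 9.47 and 9.35 in untreated livers. LKB1 5 and 6 were the lowest mice, while LKB1 4 was nearly level with the highest, untreated 2. The difference of -0.18 ± 0.16 (SE) came to -0.02 within set A, to -0.35 within set B, to -0.28 without LKB1 4 and to -0.07 without untreated 2 (limma adjusted p = 0.883 with all mice).

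Eif4ebp2 had 8.99 to 10.30 in LKB1 livers (median 9.48), against 10.15, 10.24, 8.43 and 9.98 in untreated livers. Untreated 3 was the lowest of all mice, and the other untreated mice lay above all LKB1 mice but LKB1 1. The fold was 0.882 with an interval from 0.531 to 1.46, the widest among the initiation factors. The log2 difference of -0.18 ± 0.34 (SE) was -0.60 without untreated 3 and -0.00 without untreated 2, and it was -0.49 within set A and 0.13 within set B. Eif4ebp3, a form known for induction of its transcript when mTORC1 is low, had 5.48 to 6.37 in LKB1 livers (median 5.96), against 5.77, 6.15, 5.51 and 5.53 in untreated livers. Its lowest and highest mice were both LKB1 mice, and the difference was 0.19 ± 0.17 (SE), 0.10 without LKB1 2 and 0.32 without untreated 2. It was 0.03 within set A and 0.34 within set B. The transporter Eif4enif1, which carries eIF4E into the nucleus, was at 0.00 on its brighter probe. On the dimmer one it had 6.81 to 7.29 in LKB1 livers (median 7.03), against 6.87, 6.79, 6.77 and 6.89 in untreated livers, and LKB1 4 alone fell within the untreated range. That difference was 0.21 ± 0.09 (SE) (limma adjusted p = 0.735).

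**Figure D2:**
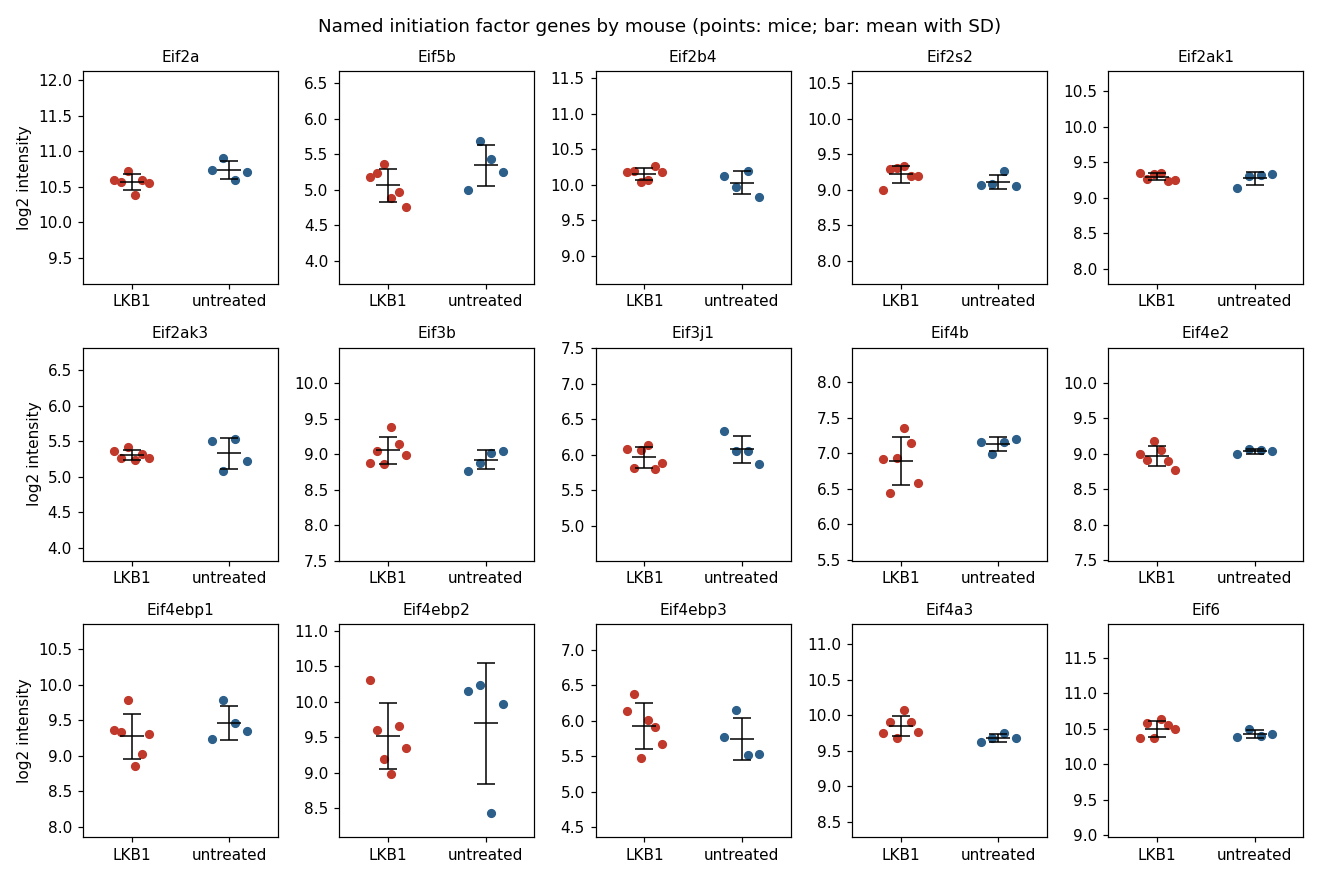
Log2 intensity in each mouse for the 15 named initiation factor genes at their brightest kept probe, with LKB1 mice (6 red points) left of untreated mice (4 blue points), the mean and the SD, each panel spanning the same 3 log2 units. The groups overlap in every panel, and Eif4ebp2 shows the widest spread, with 1 untreated mouse at 8.43.

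The remaining genes share the Eif name but act elsewhere too. Eif4a3, the helicase of the exon junction complex, had 9.68 to 10.07 in LKB1 livers (median 9.83), against 9.62, 9.67, 9.75 and 9.68 in untreated livers. LKB1 4 fell within the untreated range and the other 5 LKB1 mice above it, LKB1 1 barely, at a fold of 1.12 with an interval from 0.981 to 1.28 (limma adjusted p = 0.792). Eif6, which keeps the ribosomal subunits apart, had 10.37 to 10.63 in LKB1 livers (median 10.53), against 10.38, 10.50, 10.40 and 10.43 in untreated livers on its brighter probe, a difference of 0.07 ± 0.08 (SE), or 0.05 without LKB1 5. Its dim probe was the only one of the 66, 1.52%, whose groups did not overlap, against 1.37% of all kept probes. It had 4.59 to 5.03 in LKB1 livers (median 4.87), against 5.06, 5.25, 5.15 and 5.14 in untreated livers, and it was detected in 5 of 6 LKB1 mice and in 4 of 4 untreated mice. The difference was -0.30 ± 0.09 (SE), a fold of 0.814 (limma adjusted p = 0.574). Both Eif6 probes differed in sign, so no direction can be given for the gene. The 3 probes of Eif5a, the hypusine-bearing elongation factor, were at 0.08 on the brightest, 0.04 and -0.00. The dim Eif6 probe, the dimmest Eif1ad probe, the dimmer Eif4enif1 probe and the middle Eif5 probe were singled out after their values were seen. Members beyond the 15 plotted by mouse were also named after their values were seen.

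Read mouse by mouse, the initiation factors moved little as a group. The median deviation of the 66 probes from the untreated mean was -0.02 to 0.05 in LKB1 mice and -0.03 to 0.07 in untreated mice. LKB1 6 had 44 of 66 probes above the untreated mean and untreated 3 had 43, the most in either group. LKB1 5 was the highest mouse for 14 probes and untreated 3 for 15, while untreated 4 was the highest for 1. Of the 18 genes with more than 1 kept probe, 4 had probes whose log2 differences lay over 0.2 apart, namely Eif6, Eif1ad, Eif5 and Eif4enif1.

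The partners and regulators of initiation were read from lists of named genes at their brightest kept probe, and 0 of the 49 measured genes passed the test. Among elongation and termination factors 6 of 12 measured genes were higher and 6 lower, with a median log2 difference of 0.02. Gspt2, a release factor, was at 0.35 ± 0.11 (SE), and Eef2k, the kinase that inactivates the elongation factor eEF2 and is activated downstream of AMPK, at -0.29 ± 0.11 (SE), each with overlapping groups (limma adjusted p = 0.606 and 0.672). Cap, poly(A) and scanning partners had a median of -0.04, with 4 of 12 genes higher and 8 lower. Larp1, which binds mRNAs that start with a run of C and T, gave 0.24 ± 0.10 (SE), and its dimmer probes gave 0.21 and 0.19 (limma adjusted p = 0.723). Paip2b, an inhibitor of the poly(A)-binding protein, was at -0.09.

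Among mTORC1 and MNK signalling genes 5 of 12 were higher and 7 lower, with a median of -0.03. Mknk2, a kinase that phosphorylates eIF4E, had 9.56 to 10.07 in LKB1 livers (median 9.85), against 10.13, 10.65, 10.20 and 10.13 in untreated livers. All 6 LKB1 mice lay below all 4 untreated mice, a separation seen in 1.37% of kept probes, and the difference was -0.44 ± 0.13 (SE), -0.38 within set A and -0.50 within set B (limma adjusted p = 0.55). Without untreated 2, the highest mouse, it was -0.32. Tsc1, a brake on mTORC1, was at -0.46 ± 0.20 (SE) on its brightest kept probe, but at -0.01 on the other, and untreated 3 lay below all LKB1 mice. Without untreated 3 the brightest probe was at -0.73. Mtor and Rptor, the kinase and its scaffold, were at 0.01 and -0.11.

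The eIF2 phosphatase and integrated stress response genes pointed both ways, 7 of 11 higher and 4 lower, with a median of 0.06. All 6 LKB1 mice lay below all 4 untreated mice for Trib3, a stress target of ATF4, at 5.89 to 6.57 against 6.67 to 7.61. Groups did not overlap in 1.37% of kept probes. Trib3 and Sesn2, another such target, were lower by log2 differences of -0.89 and -0.46. Atf4 itself was at 0.38 ± 0.15 (SE) and Ddit3 at 0.42 ± 0.26 (SE). None passed the test with this scaling (limma adjusted p = 0.257, 0.473, 0.678 and 0.825). Trib3 passed with array medians made equal (limma adjusted p = 0.0211), but that test did not take out the shift of -0.14 in the median of all kept probes. Ppp1r15a, the inducible subunit that directs dephosphorylation of eIF2, was at 0.19 ± 0.12 (SE). Within sets A and B, Ppp1r15a was at 0.01 and 0.36, Ddit3 at -0.02 and 0.86, and Atf4 at 0.29 and 0.47. Both mitochondrial initiation factors were higher, Mtif2 at 0.18 ± 0.12 (SE) and Mtif3 at 0.01 ± 0.10 (SE), and the sign of Mtif3 turned with the setting. Mtif2 was at 0.05 without untreated 3 and at 0.28 without untreated 4. Atf4, Ddit3, Ppp1r15a, Mtor and Rptor were named after their values were seen.

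**Figure D3:**
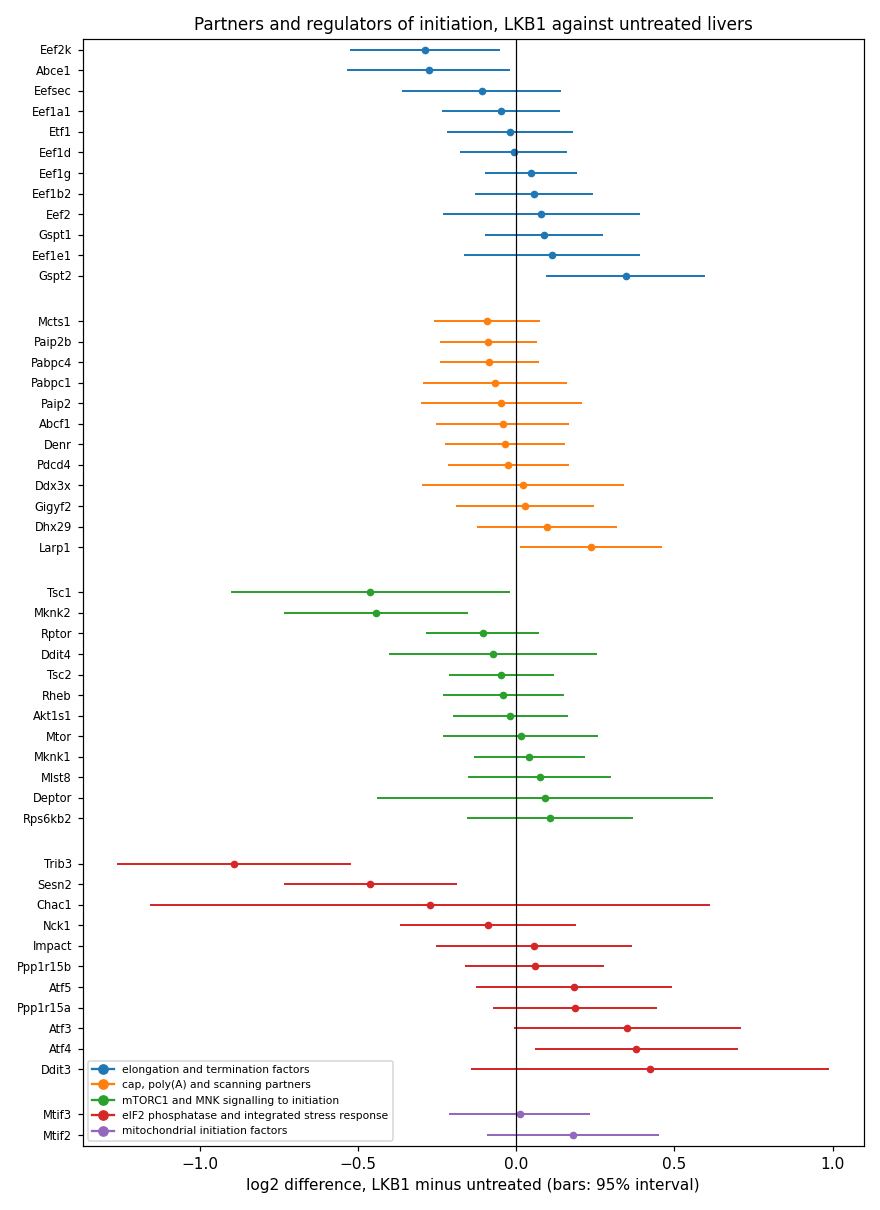
Log2 difference between LKB1 and untreated livers, with 95% confidence intervals, for the measured partners and regulators of initiation at their brightest kept probe, by list. Trib3 lies farthest from 0, at -0.89, and no gene passed the adjusted test.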

How the data were processed

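The deposited table held each array's average signal, an intensity, and a detection p-value per probe, not normalized. A second deposited table held the authors' log2 values. Per the submitters' processing notes lumi was used, without version or settings. The signals were background-corrected with normexp, its parameters taken from the detection p-values, with an offset of 16, then quantile normalized and log2 transformed. Probes with a detection p under 0.05 on at least 4 of 10 arrays were kept. All kept probes were fitted together with limma 3.58.1 in R 4.3.3 (lmFit and eBayes, two-sided), with Benjamini-Hochberg adjustment over all of them at 0.05. The script was tested on simulated data. The 10 arrays limit the precision.

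Symbols came from the platform annotation, which gave 1 symbol for 34885 probes, several for 18 and listed 10378 not at all. All 49 member symbols matched RefSeq. By rule, the genes named were, per role class, the 2 of smallest p at their brightest kept probe, always Eif4e, Eif2s1 and the 3 Eif4ebp genes, and of each partner list those called or else the 2 of smallest p. Other kept probes of an initiation factor gene stand beside it where they differ in sign or by over 0.2. The members, lists and rules were chosen with earlier results of these data known. Alternatives were the authors' values, array medians made equal, no background correction, other detection filters, each array set, a replicate block and each mouse left out. Nothing states that the mice of a group were handled separately, so p-values measure the spread between these samples.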

Additional observations from a re-analysis of the deposited data

Results flagged for a closer look

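In 30 groups of mice, the 6 LKB1 or the 4 untreated mice of each of 15 genes, a mouse far from the rest of its group was looked for with Dixon's ratio, which chance passes in about 1 group in 20. Untreated 3 stood apart for Eif4ebp2, at a log2 intensity of 8.43, with the nearest untreated mouse at 9.98 and the highest at 10.24. Untreated 3 also stood apart for Eif2s2, at 9.26, above the nearest untreated mouse at 9.08 and the lowest at 9.05. For Eif2ak1 it was untreated 1, at 9.14, below the nearest at 9.31 and the highest at 9.33. No LKB1 mouse was singled out in these groups.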

How the results depend on the processing

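No initiation factor probe was called under any alternative run. With array medians made equal, the median of all kept probes moved by -0.14 (log2). In that run 15 probes of the whole table were called, with 877 at an unadjusted p under 0.05 against 1119. The tests of that run did not take out the shift. Relative to the shift, the initiation factor median was -0.030, Eif2ak1 -0.029, Eif2ak3 0.040, Eif6 -0.0058 and Mtif3 -0.028. Within set A, Eif2ak3 was at 0.060 and Eif6 at -0.0031. Within set B, Eif4ebp2 was at 0.13, Eif2ak1 at -0.047 and Mtif3 at -0.13. With 1 mouse left out, 0 to 1 probes were called, the 1 being the chemokine gene Cxcl1 without LKB1 2 (limma adjusted p = 0.00731), the initiation factor median ran from -0.0037 to 0.036, Eif2ak1 from -0.023 to 0.040, Eif2ak3 from -0.11 to 0.044 and Mtif3 from -0.022 to 0.078. Unadjusted calls over the table numbered 717 without untreated 2 and 2504 with no filter on detection, where more probes were tested and the initiation factor median was -0.0012. Deviations of same-numbered mice correlated at 0.15, 0.24 and -0.17 for numbers 1, 2 and 4. Numbers 1 and 2 were in set A in both groups, while LKB1 4 was in set A and untreated 4 in set B. These values cannot settle whether the numbers pair mice, and the labels name no pairing. The replicate block called 0 probes and put Eif4ebp1 at 0.035, Eif2ak3 at 0.081 and Mtif2 at -0.034. The cause of these moves was not tested. Eif5b, Eif2ak3, the dim Eif6 probe, Sesn2 and Tsc1 lie near background, where a log2 difference rests on little signal. So do both dimmer Eif2d probes, the dimmest Eif4e3 probe and the dimmer Eif3c probe. The dimmest Eif2d probe was detected on 4 arrays and that Eif4e3 probe on 5. Gspt2 and Eef2k were also dim. Without background correction the log2 difference was -0.18 for Eif5b, -0.20 for the dim Eif6 probe, -0.30 for Sesn2 and -0.32 for Tsc1. It was 0.24 for Gspt2 and -0.21 for Eef2k.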

Other observations

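Several probes shared their lowest mouse, untreated 3. Over all 66 initiation factor probes, untreated 3 was the lowest mouse for 5 and the highest for 15. Untreated 1 and untreated 4 were each the lowest for 10. Untreated 3 was the lowest of all 10 mice for Eif4ebp2 at 8.43, for the middle Eif5 probe at 9.50, for Tsc1 at 4.79 and for Mtif2 at 7.19, and these were picked after their values were seen. For the Eif4ebp2 and Eif5 probes LKB1 5 was the next lowest, at 8.99 and 9.69. The other Eif5 probes did not share this: LKB1 5 was the lowest on the brightest alone, and untreated 3 was the highest mouse on both.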
